A study of Mus musculus with 10 samples.

Results

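The regions described here are 3186 stretches of chromatin in undifferentiated 3T3-L1 cells that were listed for acetylation of histone H3 lysine 9 (H3K9ac) at 0 h and had no listed peak of the transcription factor C/EBPβ nearby. 3T3-L1 is a mouse fibroblast line that can be turned into adipocytes in culture. Members were defined by position alone: a region of the 0 h list was kept when neither the C/EBPβ list of undifferentiated cells (0 h) nor the list of cells 6 h after induction held a peak at a gap under 1 kb. They made up 71.9% (95% Wilson interval 70.6 to 73.2%) of the 4429 regions of the 0 h list, and the 3 H3K9ac lists of the series held 13903 regions in all. The other 1243 regions of the 0 h list, called here regions near C/EBPβ, comprised 792 with a 0 h peak and 451 with a 6 h peak only. Of these, 977 overlapped a C/EBPβ peak directly.

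The series profiled 3T3-L1 cells by chromatin immunoprecipitation and sequencing (ChIP-seq). H3K9ac was mapped in undifferentiated cells (0 h) and at 24 and 240 h after induction of differentiation, and the binding of C/EBPβ at 0 and 6 h and of the glucocorticoid receptor (GR) at 6 h was mapped too. All libraries came from this 1 line, grown in high-glucose medium with fetal bovine serum, with no genetic change named, and the composition of the inducing mixture is not stated in the labels. Since each factor and time is a single library, and its depth is unknown, none of the values below comes with an error between replicates. The H3K9ac lists are selective. Per the labels, the 0 h list holds only regions away from transcription start sites that the authors called more acetylated at 0 h than at 24 or 240 h. By that call the members were less acetylated at a later time, and the list says nothing of sites whose acetylation did not change.

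H3K9ac is laid down by histone acetyltransferases that transcription factors recruit, and it marks active promoters and enhancers. C/EBPβ is a basic leucine zipper factor that acts in the first hours of the adipogenic programme and precedes the later regulators PPARγ and C/EBPα. GR is the nuclear receptor for glucocorticoids. Adipogenic hormone mixtures usually contain a glucocorticoid, and liganded GR often binds chromatin beside other factors such as C/EBPβ. Binding of other factors to the regions was not measured in these lists. The files carry no gene names, and all coordinates are given as deposited, on the mouse build mm8.

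The regions were short stretches on a 50 bp grid. Their width ran from 700 bp over a median of 1400 bp (95% interval of the median 1350 to 1400 bp) to 9850 bp, with quartiles of 1050 and 2100 bp. Regions near C/EBPβ had a median of 1750 bp (1650 to 1800 bp), quartiles of 1200 and 2700 bp, and a maximum of 13500 bp. Of the members, 680 (21.3%) were 1000 bp or narrower, against 171 (13.8%) of the regions near C/EBPβ, and 302 (9.48%) were at least 3000 bp wide, against 254 (20.4%). Together the members covered 5517.8 kb and the regions near C/EBPβ 2735.7 kb. The share of 0 h regions without C/EBPβ fell with width over 4 width classes. It was 79.4% at 700 to 1100 bp, 76.1% at 1150 to 1500 bp, 69.7% at 1550 to 2250 bp and 61.0% at 2300 to 13500 bp. A wider region reaches more sequence within 1 kb of its edges, so width is tied to the rule, and these values are a description without a test. The part of this geometry in the difference was not tested.

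**Figure D1:**
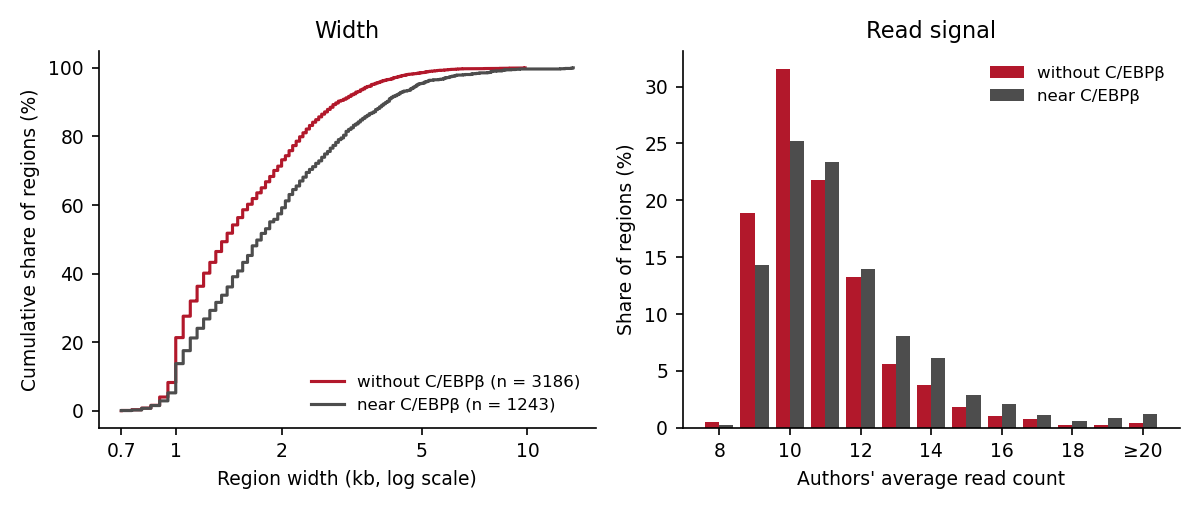
Left, cumulative share of regions (%) against region width (kb, log scale) for 3186 regions without C/EBPβ (red) and 1243 regions near C/EBPβ (grey). Right, share of regions (%) at each value of the authors' average read count, with values of 20 and above joined. The red curve lies left of the grey one, with medians of 1400 bp without and 1750 bp near C/EBPβ, and the red bars exceed the grey ones at read counts of 8 to 10.

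Signal was given by the authors as an average read count per region, in whole numbers on a scale that is not described. The members' values ran from 8 to 25, with a median of 10, quartiles of 10 and 12 and a mean of 10.9. Regions near C/EBPβ ran from 8 to 32, with a median of 11 and a mean of 11.5. The ranges overlapped, and members were shifted to lower counts. A count of at least 12 was listed for 869 members (27.3%) and 459 regions near C/EBPβ (36.9%). A count of at least 15 was listed for 147 members (4.61%) and 109 regions near C/EBPβ (8.77%), a difference of -4.16 percentage points (95% Newcombe interval -5.99 to -2.51). A count of at least 20 was listed for 13 members (0.408%) and 15 regions near C/EBPβ (1.21%). Wider regions had higher counts in both classes, with a Spearman rho between width and count of 0.27 over the 3186 members and 0.33 over the 1243 regions near C/EBPβ. All of these regions share 1 library. Within the 4 width classes, from narrow to wide, the mean counts of members were 10.4, 10.8, 10.9 and 11.9, against 10.5, 11.3, 11.2 and 12.4 near C/EBPβ.

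The false discovery rate (FDR) of the authors' differential call took 4 values, 0, 6.07e-07, 3.76e-06 and 2.21e-05. It was listed as 0 for 1489 members (46.7%, 45.01 to 48.5%), against 745 regions near C/EBPβ (59.9%, 57.2 to 62.6%) and 50.4% of all 0 h regions. The difference was -13.2 points (-16.4 to -9.95). The highest of the 4 values was listed for 748 members (23.5%) and 183 regions near C/EBPβ (14.7%). Much of the difference in FDR went with width. Over the 4 width classes, 0 was the listed FDR for 14.5%, 47.6%, 57.1% and 84.8% of members, against 15.9%, 61.3%, 58.9% and 88.3% of regions near C/EBPβ. The difference was -13.7 points (-20.6 to -6.53) in the second class, and in the other classes its interval held 0, with values of -1.40 (-6.70 to 3.14), -1.77 (-8.08 to 4.67) and -3.45 points (-7.52 to 0.872).

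By average read count, the 5 highest members were on chromosome 8 at 82096250 to 82099000, where the count was 25, chromosome X at 165490100 to 165491200 with 24, chromosome 2 at 125965000 to 125967400 and at 136314550 to 136316900, each with 23, and chromosome 2 at 142420150 to 142425550 with 22. All 5 had an FDR of 0, as did 46.7% of all members. Of the 5, 3 lay on chromosome 2, which held 284 of the 3186 members. None of the 5 was a near miss of the rule. Their gaps to the nearest C/EBPβ peak, in the same order, were 53068, 164722, 26861, 12928 and 8186 bp, and the nearest GR peaks were 20734, 212303, 26834, 56761 and 164718 bp away. The region on chromosome 8 lay 250 bp from the next 0 h region and the region at 136314550 lay 1150 bp from one, while the other 3 had no 0 h region within 10 kb.

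The 3 widest members had read counts above the members' median of 10, and each had another 0 h region close by. The widest, on chromosome 7 at 98372100 to 98381950, measured 9850 bp with a count of 12, and a C/EBPβ 0 h peak lay 18167 bp away. The second, on chromosome 11 at 45076600 to 45086100, measured 9500 bp with a count of 16, and its nearest C/EBPβ peak was 21375 bp away. The last, on chromosome 2 at 178399950 to 178408850, measured 8900 bp with a count of 14, and a C/EBPβ 6 h peak lay 1413 bp away. The gaps to the next 0 h region were 4150, 250 and 1950 bp in that order.

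A C/EBPβ peak lay within 50 kb of 2670 members (83.8%) and, by the rule, of all 1243 regions near C/EBPβ. No member lay within 1 kb, also by the rule. The share for positions placed at random was not computed. The gap to the nearest peak of either C/EBPβ list had a median of 14.1 kb (95% interval 13.0 to 15.1 kb) and quartiles of 5.22 and 33.3 kb. The nearest peak lay at 1 to 2 kb for 244 members (7.66%), at 2 to 5 kb for 524 (16.4%), at 5 to 10 kb for 542 (17.0%) and at 10 to 25 kb for 827 (26.0%). It lay at 25 to 50 kb for 533 (16.7%), at 50 to 100 kb for 300 (9.42%) and at 100 kb or more for 216 (6.78%). The nearest peaks were ordinary in height. Their median was 17, with quartiles of 14 and 25, where the lowest listed height was 12 and the median height of each C/EBPβ list was 18. The 768 members with a C/EBPβ peak at 1 to 5 kb had a median height of 18 at that peak.

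By list, the median gap was 25.6 kb (23.9 to 27.4 kb) to C/EBPβ 0 h peaks, 17.9 kb (16.7 to 19.0 kb) to C/EBPβ 6 h peaks and 111.8 kb (103.0 to 120.9 kb) to GR peaks. The lists hold 10359, 20746 and 4007 peaks, and a longer list gives shorter gaps. A 6 h peak was the nearer of the C/EBPβ peaks for 2112 members (66.3%), a 0 h peak for 1069 (33.6%), and 5 had equal gaps. When the 6 h list was limited to its strongest peaks, as many as in the 0 h list, this order turned: the 6 h peak was nearer for 1460 members (45.8%) and the 0 h peak for 1722 (54.0%), and the median gap to 6 h peaks was 35.9 kb. With both C/EBPβ lists limited to the length of the GR list, the median gaps were 76.2 kb to 0 h and 103.2 kb to 6 h peaks, against 111.8 kb to GR peaks.

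**Figure D2:**
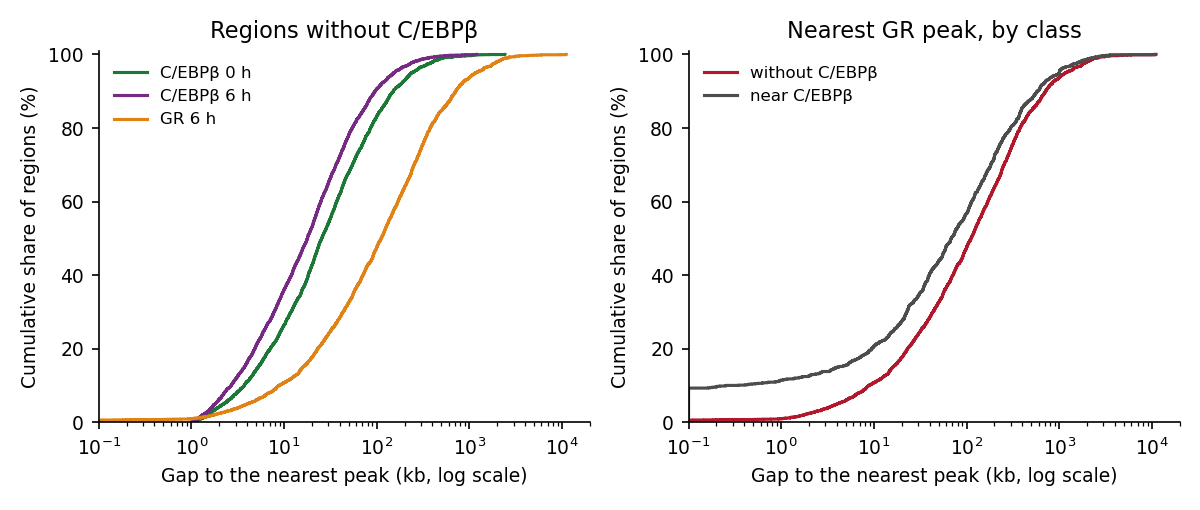
Cumulative share of regions (%) against the gap to the nearest peak (kb, log scale; gaps under 0.1 kb are drawn at 0.1 kb). Left, the 3186 regions without C/EBPβ against each factor list, where medians were 25.6 kb for C/EBPβ 0 h, 17.9 kb for C/EBPβ 6 h and 111.8 kb for GR. Right, the gap to GR peaks for regions without C/EBPβ (red) and near C/EBPβ (grey), with medians of 111.8 kb without and 68.5 kb near C/EBPβ.

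At the boundary of the rule the smallest gap among members was 1006 bp and the largest gap among the other regions 997 bp. The 113 members with a gap of 1000 to under 1500 bp had a median width of 1300 bp and a median read count of 10, and 3 lay near a GR peak. The 123 regions on the other side, with a gap of 500 to under 1000 bp, had a median width of 1200 bp and a median read count of 10, and 8 lay near a GR peak. The FDR was listed as 0 for 54 of the members and 48 of the other regions.

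The surroundings of the members were examined by the density of factor peaks at increasing distance from the regions' edges, counted on both sides beyond the 1 kb that the rule used. Each peak is counted for every region it lies near, so the values describe surroundings and do not count independent peaks. Peaks of C/EBPβ 0 h stood at 21.8 per 1000 regions per kb at 1 to 2 kb around members, at 17.4 at 5 to 10 kb, at 15.1 at 10 to 20 kb and at 11.0 at 50 to 100 kb. Regions near C/EBPβ had 22.5, 20.4, 18.2 and 13.7 at the same distances. The mean over the listed span of the chromosomes was 3.95 peaks per 1000 kb, so C/EBPβ peaks were denser around members than that mean even 50 to 100 kb away. The mean includes DNA where reads cannot be placed.

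C/EBPβ 6 h peaks showed the same fall with distance. Around members they stood at 33.3 per 1000 regions per kb at 1 to 2 kb, 27.1 at 5 to 10 kb, 24.9 at 10 to 20 kb and 23.2 at 20 to 50 kb, against 41.0, 36.0, 33.3 and 29.2 around regions near C/EBPβ and a mean of 7.92 over the span. GR peaks stood at 7.85 at 1 to 2 kb, 6.80 at 2 to 5 kb, 5.24 at 5 to 10 kb and 4.13 at 50 to 100 kb around members. Around regions near C/EBPβ they stood at 7.64, 6.70, 8.13 and 5.33, and the mean over the span was 1.53. The members' density was the lower one for C/EBPβ at every distance shown and for GR beyond 5 kb, and the classes were close for GR at 1 to 5 kb. The classes were split by these same C/EBPβ lists. Leaving out the first 1 kb does not free the contrast in C/EBPβ density from the rule, so it is a description only.

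**Figure D3:**
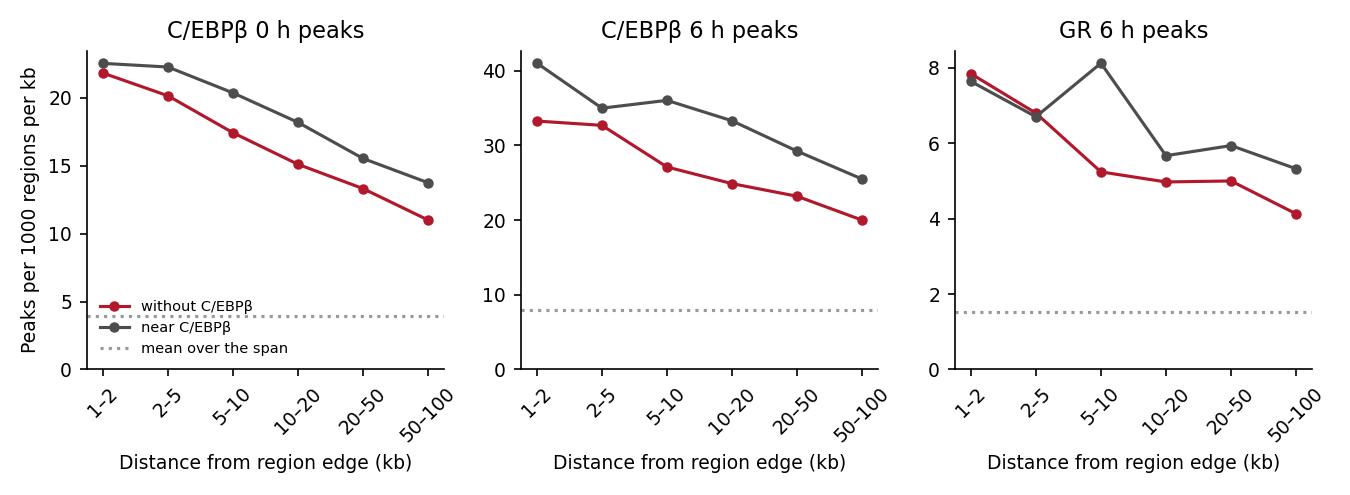
Factor peaks per 1000 regions per kb against the distance from the region edge (kb, bins of unequal width on an even axis), for regions without C/EBPβ (red) and near C/EBPβ (grey). The dotted line is the list's mean over the listed span, 3.95 for C/EBPβ 0 h, 7.92 for C/EBPβ 6 h and 1.53 for GR, and every point lies above it.

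Few members lay beside GR. A GR peak lay at a gap under 1 kb of 32 members (1.004%, 0.712 to 1.41%), against 142 of 1243 regions near C/EBPβ (11.4%, 9.77 to 13.3%) and 3.93% of all 0 h regions. The difference was -10.4 points (-12.3 to -8.72), and within the 4 width classes it lay between -12.0 and -8.56 points. Direct overlap with a GR peak was found for 19 members (0.596%) and 111 regions near C/EBPβ (8.93%). The rule bears on this count, because a GR peak that lies on a C/EBPβ peak can hardly be close to a member. For the 1167 GR peaks with no C/EBPβ peak at a gap under 1 kb, a split added after the data had been seen, the shares were 1.004% of members (32 regions) and 0.644% of regions near C/EBPβ (8 regions). That difference was 0.361 points (-0.326 to 0.879), and this subset is in turn tied to the rule from the other side. The excess near C/EBPβ was thus counted at GR peaks that themselves lie within 1 kb of a C/EBPβ peak.

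The 32 members shared 31 GR peaks. None of these peaks overlapped a C/EBPβ peak, for which the rule leaves little room. Their GR heights ran from 12 to 38 with a median of 15, and the 135 GR peaks beside regions near C/EBPβ ran from 12 to 69 with the same median. The 5 members with the highest GR peak lay on chromosome 16 at 34826600 to 34830100 with a GR height of 38, chromosome 15 at 75653400 to 75654550 with 37, chromosome 6 at 117294450 to 117299550 with 36, chromosome 14 at 24216100 to 24217200 with 32, and chromosome 6 at 91151850 to 91155700 with 26. The GR peak overlapped the region on chromosomes 16 and 14 and the first on chromosome 6, and lay 926 and 493 bp outside the other regions. In 3 of the 5 the nearest C/EBPβ peak was not far beyond the boundary of the rule, with gaps of 1590 bp on chromosome 16 and of 1192 and 2721 bp on chromosome 6, while the gaps on chromosomes 15 and 14 were 8226 and 17421 bp.

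The H3K9ac lists of later times gave different shares under the same rule. C/EBPβ was listed at 0 and 6 h only, so its binding at 24 and 240 h is not known here. No C/EBPβ peak lay at a gap under 1 kb of 3186 of 4429 regions at 0 h (71.9%), 1053 of 1629 at 24 h (64.6%, 62.3 to 66.9%) and 6704 of 7845 at 240 h (85.5%, 84.7 to 86.2%). The 0 h share differed by 7.29 points (4.64 to 9.98) from the 24 h share and by -13.5 points (-15.1 to -12.0) from the 240 h share. Among regions without C/EBPβ, a GR peak lay near 1.004% at 0 h, 6.65% at 24 h (70 regions) and 0.477% at 240 h (32 regions). The members' share differed from the 24 h share by -5.64 points (-7.34 to -4.23) and from the 240 h share by 0.527 points (0.176 to 0.960). The median gap to C/EBPβ of these regions was 14.1 kb at 0 h, 9.37 kb at 24 h and 19.6 kb at 240 h. Among regions near C/EBPβ, a GR peak lay near 11.4% at 0 h, 47.9% at 24 h and 13.1% at 240 h. The share without minus that near C/EBPβ was -10.4 points at 0 h. It was -41.3 points (-45.6 to -36.9) at 24 h and -12.6 points (-14.7 to -10.7) at 240 h. The lower GR share without C/EBPβ was thus not particular to the 0 h list, and the rule bears on it in every list.

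A neighbour in the same list was common. Another 0 h region lay at a gap under 10 kb of 1300 members (40.8%, 39.1 to 42.5%), against 549 regions near C/EBPβ (44.2%, 41.4 to 46.9%) and 41.7% of all 0 h regions. The difference was -3.36 points (-6.61 to -0.132), with an interval that ends close to 0. With regions and neighbours both limited to an FDR of 0 it was 0.0887 points. At a gap under 1 kb the shares were 16.8% of members (536 regions) and 21.4% of regions near C/EBPβ (266 regions), a difference of -4.58 points (-7.26 to -2.01). The median gap to the next 0 h region was 18.8 kb for members and 14.9 kb for regions near C/EBPβ. The smallest was 0.1 kb in both classes. Whether regions this close are parts of 1 acetylated stretch was not tested, and each counts as a separate region here and in the chains below. For comparison, a region of the own list lay under 10 kb from 26.7% of the 24 h and 60.0% of the 240 h regions without C/EBPβ, in lists of other lengths.

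The class of the next region differed between the classes. Regions near C/EBPβ made up 28.1% of the whole 0 h list. Where the next 0 h region lay under 10 kb away, it was near C/EBPβ for 291 of 1300 members (22.4%, 20.2 to 24.7%) and for 270 of 549 regions near C/EBPβ (49.2%, 45.02 to 53.4%). The difference was -26.8 points (-31.5 to -22.0). Neighbours can share 1 C/EBPβ peak between them, and pairs are counted from both sides. The class of a region and that of its neighbour both come from the rule's C/EBPβ lists. The difference is therefore tied to the rule and is a description only. A region near C/EBPβ lay under 10 kb from 399 members (12.5%) and under 1 kb from 108 (3.39%).

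Joining members at gaps under 10 kb gave 2541 chains. Of the members, 2096 stood alone, and 1090 (34.2%, 32.6 to 35.9%) fell into 445 chains of at least 2. There were 322 chains of 2, 73 of 3, 33 of 4, 10 of 5, 5 of 6, 1 of 7 and 1 of 8 members. Chained members were wider and of higher signal than those alone. Members alone, in chains of 2 or 3, and in chains of at least 4 had median widths of 1300, 1550 and 1550 bp and mean read counts of 10.8, 11.1 and 11.4. The FDR was 0 for 43.1%, 52.8% and 56.8% of them, and their median gaps to C/EBPβ were 14.97, 12.98 and 11.7 kb. When all 4429 regions were joined in the same way, 708 chains of at least 2 regions formed, of which 357 held members alone, 274 held both classes and 77 held regions near C/EBPβ alone. Members made up 73.1% of the regions standing alone and 69.96% of those in chains of at least 4.

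The 3 longest chains had unlike surroundings. The chain of 8 members spanned 48.1 kb of chromosome 19, from 17314800 to 17362900, and the members covered 38.7% of it. Their average read counts, along the chromosome, were 13, 13, 14, 14, 14, 17, 14 and 12, all above the members' median of 10, and all 8 had an FDR of 0. Between them lay 3 regions near C/EBPβ, 5 C/EBPβ 6 h peaks with heights of 13 to 25, and 3 GR peaks with heights of 13 to 21. No C/EBPβ 0 h peak lay inside the chain. The member with the count of 17, at 17351250 to 17354950, held the GR peak with the height of 21.

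The other 2 held no factor peak at all. The chain of 7 on chromosome 2 spanned 29.4 kb from 163823250 to 163852650, with members over 52.2% of it. Its counts were 10, 13, 13, 10, 13, 11 and 10, the FDR was 0 for 4 of the 7, and the nearest C/EBPβ peak, of 0 h, lay 4678 bp outside. The chain of 6 on chromosome 10 spanned 27.3 kb from 38028350 to 38055650, with members over 61.7% of it. Its counts were 13, 14, 12, 18, 12 and 10, and the FDR was 0 for 5 of the 6. The region with 18, at 38041050 to 38049400, measured 8350 bp, and the nearest C/EBPβ and GR peaks lay 26203 and 226537 bp from the chain.

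**Figure D4:**
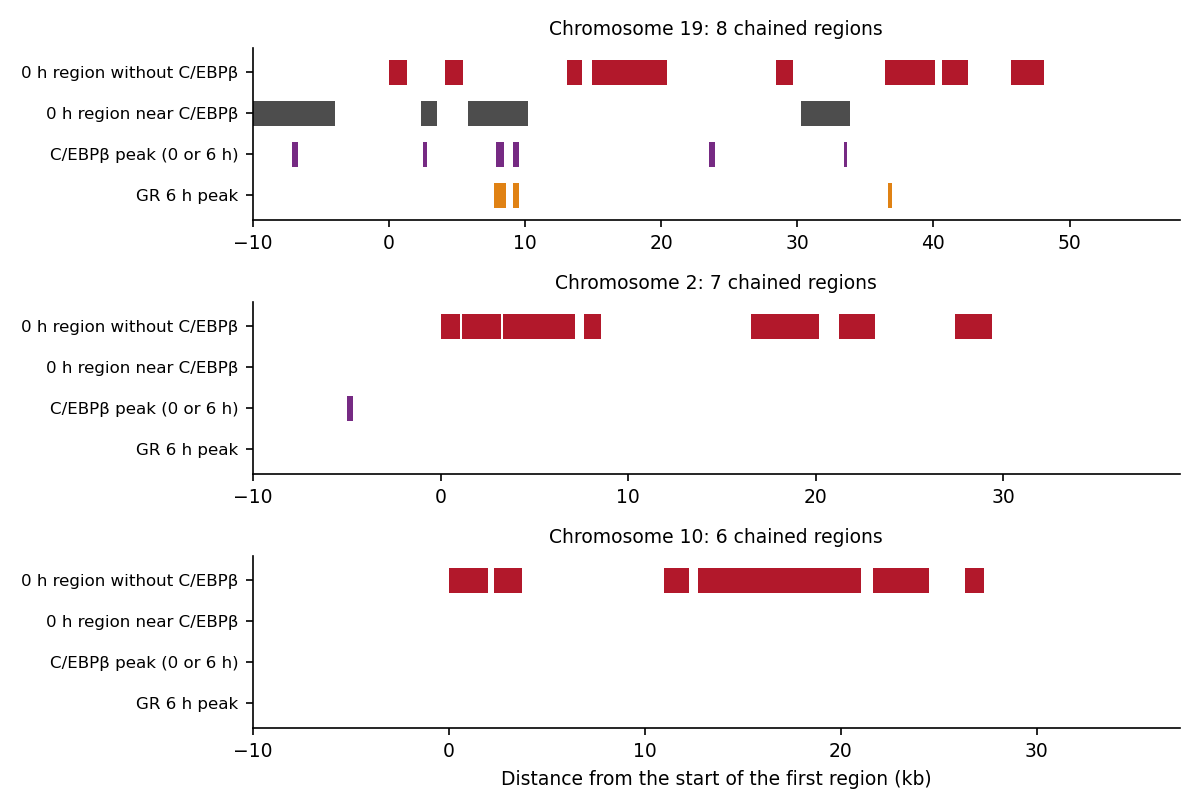
Maps of the 3 chains with most members, as distance from the start of the first region (kb) with 10 kb on either side, each panel on its own scale. Rows from top to bottom show 0 h regions without C/EBPβ (red), 0 h regions near C/EBPβ (grey), C/EBPβ peaks of 0 or 6 h (purple) and GR 6 h peaks (orange). Only the chromosome 19 chain, of 8 regions over 48.1 kb, has factor peaks inside it.

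At the other extreme, 3 members lay about a megabase from any factor peak. A region on chromosome 12 at 29340800 to 29341800, 1000 bp wide with a count of 10, was 1205966 bp from C/EBPβ and 1362271 bp from GR. A region on chromosome 18 at 15350800 to 15352150, with a count of 9, was 1094052 bp from C/EBPβ and 1005200 bp from GR. A region on chromosome 7 at 60270100 to 60271100, with a count of 14 and an FDR of 0, was 915113 bp from C/EBPβ and 949514 bp from GR. None had another 0 h region within 100 kb. The chromosome 12 region lay 27300 bp from a region of the 240 h list and the chromosome 7 region 99350 bp from one.

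Few 0 h regions of either class had a region of a later list within 10 kb, and the members' shares were near those of all 0 h regions. A 24 h region lay at a gap under 10 kb of 85 members (2.67%), against 43 regions near C/EBPβ (3.46%) and 2.89% of all 0 h regions, a difference of -0.791 points (-2.06 to 0.285). A 240 h region lay under 10 kb from 211 members (6.62%, 5.81 to 7.54%), against 53 regions near C/EBPβ (4.26%, 3.27 to 5.54%) and 5.96% of all 0 h regions. That difference was 2.36 points (0.850 to 3.71). Under 25 kb the shares were 14.8% of members and 9.90% of regions near C/EBPβ, and under 50 kb 24.5% of members and 18.1% of regions near C/EBPβ. The median gap to a 240 h region was 156.5 kb for members and 215.4 kb for regions near C/EBPβ. Members thus lay closer to regions of the 240 h list than regions near C/EBPβ did. Among regions with an FDR of 0 alone the difference under 10 kb was 1.14 points, with an interval that held 0.

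The order of the 0 h list falls into 3 runs, a new one starting where the FDR drops back to a lower value, and the labels do not say what they stand for. Members were 2446 of 3298 regions in the first run (74.2%), 641 of 962 in the second (66.6%) and 99 of 169 in the last (58.6%). Their median widths were 1300, 1850 and 2650 bp, and the FDR was 0 for 36.8%, 76.6% and 100% of them. The share beside GR was the lower one for members in every run. It was 0.859%, 1.40% and 2.02% of members against 10.3%, 14.0% and 12.9% of regions near C/EBPβ. The rule bears on this count in each run alike, so the runs give no separate support for it. A 240 h region lay under 10 kb from 5.31% of members of the first run, 11.1% of the second and 10.1% of the last, against 3.05%, 6.85% and 7.14% of regions near C/EBPβ. Members of the second run exceeded those of the first by 5.76 points (3.36 to 8.55). What differs between the runs in how the regions were called cannot be told from the files.

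**Figure D5:**
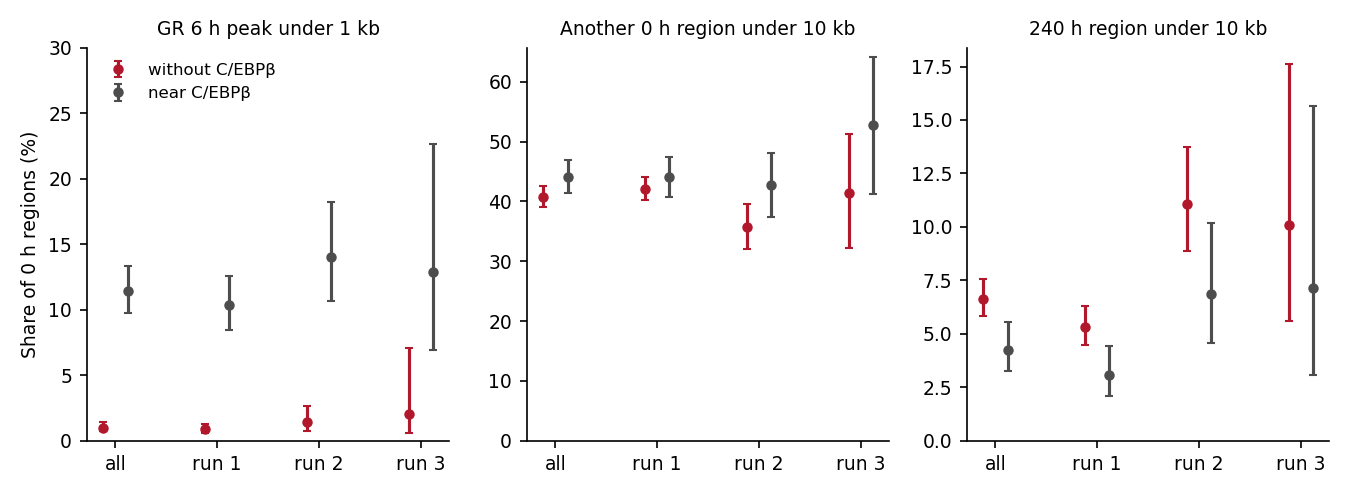
Share of 0 h regions (%) with a GR 6 h peak under 1 kb, another 0 h region under 10 kb and a 240 h region under 10 kb, for regions without C/EBPβ (red) and near C/EBPβ (grey), in the whole list and in the 3 runs of its order. Bars are 95% Wilson intervals of counting error. The rule bears on the GR shares in the whole list and in each run. The red points lie below the grey ones for GR in every run (1.004% against 11.4% in the whole list) and above them for 240 h regions (6.62% against 4.26%), where the intervals of the second and last runs overlap.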

How the data were processed

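Per the labels' protocols, ELAND aligned 36 bp reads to mm8 and allowed at most 2 mismatches. Only reads with a unique position entered, and each start coordinate counted for 1 read, so strong peaks are capped and repeats uncovered. How peaks and differential regions were called is not given in the sources used here. For H3K9ac regions the deposited files give an FDR (a corrected p-value, by the authors) and an average read count, a read signal of undescribed scale. For C/EBPβ and GR peaks the authors deposited a fold enrichment, a ratio over an undescribed background, and a peak height, a whole-number read signal. The 4 input libraries were not analysed here, and none of the 6 input-bias regions that the authors deposited (positions only, another kind of list) overlapped a listed interval.

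Gaps, overlaps and chains were computed with Python 3.11.15, numpy 2.4.6, pandas 2.3.3 and scipy 1.17.1, and figures were drawn with matplotlib 3.10.9. The code was tested on simulated lists. Shares have 95% Wilson intervals, differences 95% Newcombe intervals and medians order-statistic intervals. They cover counting error only and treat regions as independent, which chained regions are not. With 1 library per group no test across libraries was possible, and the depth is unknown. Named regions are the 5 members of highest read count, the 3 widest, the 3 farthest from any factor peak, the 5 with the highest GR peak under 1 kb, and the 3 chains with most members. Members, lists and rules were chosen with earlier results of these data known. No genome of the files' build was used here, so no gene is named and no sequence printed.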

Additional observations from a re-analysis of the deposited data

How the results depend on the processing

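No paired analysis was possible because each group is 1 library. Depth is unknown, so absence of a peak from its list may reflect the threshold of that list. No replicate could be left out. Sequence features of the regions, in the shorter and the longer central window, were not run, because no genome of the files' build was used here. Over all differences, under the other gaps, peaks, lists and subsets of regions, 38 kept the direction and whether the interval held 0, 3 lost the call and 3 reversed. Of those chosen after seeing the data (runs of the list's order, GR peaks away from C/EBPβ, FDR by width class), 9 kept both, 6 lost the call and 2 reversed. The share of members, 71.9%, was 77.9% with direct overlap, 54.6% and 42.4% with gaps under 5 and 10 kb, 79.1% with centres within 1 kb, 83.8% with the stronger C/EBPβ peaks, 78.3% with the 6 h list at the length of the 0 h list, 82.1% and 75.9% with the 0 h or 6 h list alone, 66.7% among regions with FDR 0, and 74.2%, 66.6% and 58.6% in the 3 runs. Fewer peaks or a shorter gap leave more members by construction. The median width was 1450 bp with the stronger peaks and 1950 bp at FDR 0, and the median read count 12 at FDR 0 and in the last run. The difference in FDR was -1.40, -1.77 and -3.45 points in width classes 1, 3 and 4. The GR difference was 0.361 points for GR peaks away from C/EBPβ. The difference in neighbours was -1.20 points with direct overlap, and 0.0887 with regions and neighbours both limited to FDR 0. It was -1.90 and -11.4 in the first and last runs. It was 7.90 when only neighbours of the own class counted, where members are the larger class. The 24 h difference, whose interval holds 0, was 0.0310 points with direct overlap and 0.173 in the last run. The 240 h difference was 1.29 points with the stronger peaks, 1.14 at FDR 0 and 2.96 in the last run. Median gaps were 76.2 and 59.6 kb to C/EBPβ 0 h with the list limited to GR length and its stronger peaks, 35.9, 103.2 and 38.5 kb to C/EBPβ 6 h with the list limited to 0 h length, GR length and its stronger peaks, and 258.2 kb to stronger GR peaks. Where no construction is named, the cause was not tested.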

Other observations

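Members were found on all 19 autosomes and X. Chromosome 6 held more of them than any other chromosome, and also the most 0 h regions. Members were 298 of its 447 regions (66.7%, 62.2 to 70.9%), a share below the 71.9% of all 0 h regions. Its members also lay closer to C/EBPβ, with a median gap of 8.31 kb, and included 6 of the 32 members beside a GR peak. The lowest share was on chromosome 13, with 102 of 158 regions (64.6%, 56.8 to 71.6%). The highest were on chromosome X with 84 of 105 (80.0%, 71.4 to 86.5%), chromosome 11 with 199 of 251 (79.3%, 73.8 to 83.8%) and chromosome 17 with 179 of 226 (79.2%, 73.4 to 84.0%). Median gaps to C/EBPβ were shortest on chromosome 19, at 7.81 kb, and longest on chromosome 12, at 23.0 kb. These are the ends of 20 chromosomes and were not tested. Member shares and gaps depend through the rule on the listed C/EBPβ peaks. Chromosome 6 held the most, 1004 at 0 h and 2019 at 6 h, and chromosome X the fewest, 243 and 482. The counts were 482 and 1093 on chromosome 13, 553 and 975 on chromosome 11, and 447 and 766 on chromosome 17.

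Of the 4429 regions of the 0 h list, 7 abutted a region of the 24 or 240 h list, sharing its boundary, and 0 shared a base with one. The 0 h regions were called more acetylated at 0 h than at a later time, so the calling itself bears on this overlap. Under 1 kb, a 240 h region lay beside 22 members (0.691%) and 2 regions near C/EBPβ (0.161%), a difference of 0.530 points (0.0454 to 0.901). A 24 h region lay that close to 27 members (0.847%) and 10 regions near C/EBPβ (0.805%), a difference of 0.0430 points (-0.677 to 0.573).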
